A study of Mus musculus with 6 samples.

Results

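The insulin and insulin-like growth factor (IGF) genes described here are the receptors Insr and Igf1r, the substrates Irs1 and Irs2, the ligand Igf1 and the binding proteins Igfbp2 to Igfbp6. They were taken from the deposited gene table by symbol. All 10 were found among its 55487 genes, each under 1 identifier, and all 10 passed the filter on low counts that left 16139 genes for testing. None of them passed the test between the knockout and control aortas, which 3.45% of all tested genes passed.

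RNA was sequenced from whole aorta of mice in 6 libraries. The 3 controls have the genotype label LoxP, after the loxP sites at which Cre recombinase cuts, and the 3 knockouts are labelled as an SMC-specific knockout of Ogt, SMC standing for smooth muscle cell. Titles of both groups begin with SM22, another name of the smooth muscle protein transgelin. The labels name neither the Cre line nor whether the controls carried it, and give no age, sex or strain. The product of Ogt adds the sugar O-GlcNAc to proteins inside the cell. The labels do not say that the libraries came from separate animals, so p-values measure the spread between these libraries, which may in part be technical.

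Insulin and IGFs act through closely related receptor tyrosine kinases. The activated receptor phosphorylates the IRS substrates, which recruit PI3-kinase and lead to AKT, while a parallel branch runs through RAS and the MAP kinases. IGF ligands outside cells are held by binding proteins, which are cut by dedicated proteases and so can store, deliver or withhold the ligand. In the vessel wall IGF1 is known for effects on smooth muscle growth and survival. Several proteins of the pathway, IRS1 among them, are known to carry O-GlcNAc, a protein modification that RNA counts do not measure.

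Depth ran from 3038782 counts in control replicate 2 to 18218385 in knockout replicate 3. Control replicate 2 stood apart, with 10.2% of its counts from mitochondrial ribosomal RNA against 0.491% to 0.823% in the others. Results that turn on it are given with and without it, except coefficients of variation and the shares of binding protein RNA. Ogt had 177, 183 and 149.97 CPM (the count scaled to the adjusted size of its library) in the controls and 93.3, 73.5 and 70.9 CPM in the knockouts (edgeR adjusted p = 0.0214). Its call was lost without control replicate 1 (0.105) or any 1 knockout library (0.0729 to 0.126), fits in which 7 to 33 genes were called in all, and in a fit with the replicate number as a block (0.0572). The tissue label was checked against 8 smooth muscle markers such as Acta2 and Myh11. Their summed level was 29635 to 35629.8 CPM in controls and 24176 to 28721.5 CPM in knockouts, groups that did not overlap. The log2 fold change (knockout minus control) was negative for 7 of the 8, and in 4 every knockout library was below every control. The separation rested in part on Tagln, the gene of transgelin and the 1 of the 8 that edgeR called. Tagln was at 4249 to 6345 CPM in controls and 2343 to 2869 CPM in knockouts, and without it the sums would overlap. Summed brown adipocyte markers were also lower, at 289 to 417 CPM in controls and 159 to 211 CPM in knockouts. All 7 tested had negative log2 fold changes, and 3 were called (Ucp1, Cox8b and Cox7a1). The largest part of that sum was Prdm16, at 138 to 245 CPM in controls and 93.8 to 138 CPM in knockouts. Its groups overlapped and it was not called. The 8 Schwann cell markers summed to 608 to 659 and 696 to 708 CPM, most of it from Ncam1 and Pmp22, and Ncam1 alone was at 399 to 476 CPM in controls and 484 to 529 CPM in knockouts. Their part in the values below was not tested. In whole tissue, fewer cells of a type and less RNA per cell cannot be told apart.

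The stretches of DNA before the start sites of 5 members are shown: the receptor and substrate genes that were highest in control replicate 2, and 2 binding protein genes that were highest in control replicate 3. RefSeq promoter windows on GRCm38.p6 were found for 9 of the 10 members, and the 250 bases before the start are printed 5′ to 3′ on the gene's strand. That start is the RefSeq one and can differ from the gene positions given below. The Igf1r window ends at 67952256 while the gene position begins at 67952827, and the Igf1 window lies inside its gene. Capitals mark matches, on either strand, to GGGCGG (the GC box), TATAAA (the TATA box) or GTAAACA (a motif of forkhead factors, the class to which the insulin-regulated FOXO factors belong).
Igf1r (chr7:67952007-67952256, plus strand): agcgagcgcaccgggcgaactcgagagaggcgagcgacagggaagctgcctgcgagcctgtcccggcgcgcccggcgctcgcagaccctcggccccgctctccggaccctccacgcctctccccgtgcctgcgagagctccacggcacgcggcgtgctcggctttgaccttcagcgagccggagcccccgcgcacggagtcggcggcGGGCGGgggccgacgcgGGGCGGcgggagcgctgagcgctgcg
Irs1 (chr1:82291440-82291689, minus strand): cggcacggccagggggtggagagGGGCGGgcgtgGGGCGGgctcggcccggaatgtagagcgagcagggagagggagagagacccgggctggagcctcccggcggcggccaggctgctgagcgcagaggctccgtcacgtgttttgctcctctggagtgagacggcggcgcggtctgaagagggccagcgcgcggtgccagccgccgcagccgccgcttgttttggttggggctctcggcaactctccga
Irs2 (chr8:11008930-11009179, minus strand): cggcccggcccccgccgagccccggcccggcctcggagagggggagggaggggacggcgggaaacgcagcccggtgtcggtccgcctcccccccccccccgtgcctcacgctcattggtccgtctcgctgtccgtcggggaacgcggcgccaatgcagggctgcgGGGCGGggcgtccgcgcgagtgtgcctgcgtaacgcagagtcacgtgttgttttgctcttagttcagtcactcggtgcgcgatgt
Igfbp4 (chr11:99040994-99041243, plus strand): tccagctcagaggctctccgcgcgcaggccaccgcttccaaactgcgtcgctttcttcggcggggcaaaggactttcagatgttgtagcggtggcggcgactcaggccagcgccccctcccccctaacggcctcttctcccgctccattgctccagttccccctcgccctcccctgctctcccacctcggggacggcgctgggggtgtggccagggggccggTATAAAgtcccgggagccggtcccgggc
Igfbp5 (chr1:72874866-72875115, minus strand): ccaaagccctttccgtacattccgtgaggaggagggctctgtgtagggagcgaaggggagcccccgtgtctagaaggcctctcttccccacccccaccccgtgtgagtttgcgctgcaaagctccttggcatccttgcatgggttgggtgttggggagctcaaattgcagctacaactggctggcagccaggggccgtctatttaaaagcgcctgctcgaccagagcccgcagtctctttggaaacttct

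The windows of Igf1r, Irs1 and Irs2 were rich in G and C, at 77.6%, 72.4% and 72.8%, against a median of 52.4% over all 32851 windows of that length. Each of these 3 held the GC box, which 32.7% of all windows hold, 2 times in Igf1r and Irs1 and once in Irs2. The Igfbp4 window was 69.2% G and C and held TATAAA with its first base at -28, counted back from the start, a motif found in 12.4% of all windows. Igfbp5 had 58.8% G and C and no match to the 3 motifs. High G and C content was not limited to the receptor and substrate genes. Among the members not printed, Igfbp3 had 73.2% and no match, and 1 of the 2 windows of Igfbp2 had 67.2% with 3 GC boxes. Igf1 and Igfbp6 had 52.8% and 49.6%, and the match at -148 in Igfbp6 was to TATAAA on the strand opposite to the gene. GTAAACA was found in none of the members' windows and in 3.17% of all windows. A match says only that these letters are present.

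Levels were compared between genes per length, on the deposited FPKM scale. In the controls the binding proteins Igfbp6 (113 ± 82.7 FPKM, SD, n = 3), Igfbp5 (82.1 ± 22.2) and Igfbp4 (75.7 ± 27.6) were the most abundant members, and their libraries overlapped one another. A gap followed that no library crossed. Irs2 (15.9 ± 8.58 FPKM), Igf1r (11.6 ± 1.96), Insr (10.9 ± 2.87), Igfbp2 (9.74 ± 3.06) and Irs1 (8.56 ± 4.09) formed a second tier in which each neighbour in the order overlapped the next. Igf1 (3.41 ± 0.883 FPKM) and Igfbp3 (1.77 ± 0.503) were the lowest, each below the member before it in every control library. Without control replicate 2 the second tier was reordered, with Insr at 12.5 FPKM, Irs2 at 11.0 and Igf1r at 10.5.

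In the knockouts Igfbp6 (98.6 ± 8.96 FPKM), Igfbp5 (58.9 ± 5.59) and Igfbp4 (55.0 ± 22.1) were again the highest and Igf1 (2.63 ± 0.265) and Igfbp3 (1.97 ± 0.272) the lowest. The middle tier ran from Igfbp2 (13.4 ± 5.01 FPKM) and Igf1r (12.6 ± 0.216) to Irs2 (10.5 ± 2.41) and Insr (8.85 ± 0.807), with Irs1 (6.48 ± 0.583) below Insr in each library. Igfbp7, a related secreted protein with low affinity for IGFs, was far above all members on the same scale (750.1 ± 117 FPKM in controls and 773 ± 199 in knockouts). The order depends on the gene lengths behind FPKM. For Igfbp5 the length implied by the table is 9937 bases, against 6006 exonic bases in GENCODE M21, so its per-length level would be higher on the shorter model, while for Igfbp6 both are 1112 bases.

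**Figure D1:**
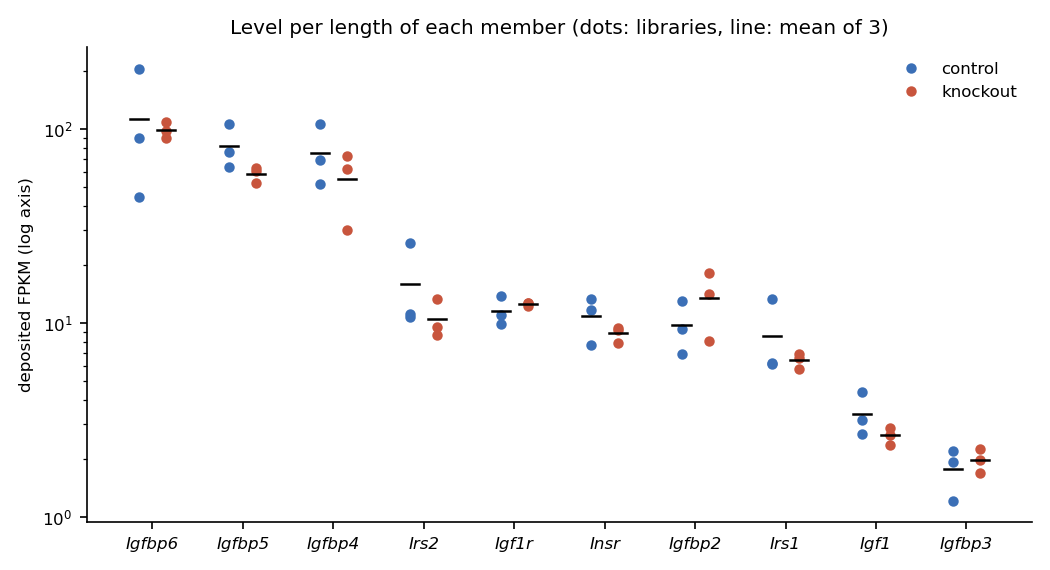
Deposited FPKM of each member on a log axis, ordered by the control mean, with 1 dot per library (blue control, red knockout) and a line at the mean of 3. Igfbp6, Igfbp5 and Igfbp4 sit above all other members in both groups, and Igf1 and Igfbp3 lie at the bottom.

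Between the groups, 0 of 10 members were called by edgeR's quasi-likelihood test at an adjusted p under 0.05, where 3.45% of all tested genes were called (1.9% higher and 1.56% lower in knockouts). DESeq2 and limma-voom also called 0 members, against 9.3% and 4.73% of all genes. At an unadjusted p under 0.05 there was 1 member, Igfbp5, against 22.7% of all genes. Log2 fold changes (knockout minus control) were negative for 7 and positive for 3 members, with a median of -0.32, beside 51.3% negative and a median of -0.013 over all genes. In 2 members, Igfbp5 and Igf1, no knockout library reached a control library, where 31.8% of all genes had groups that do not overlap. Without control replicate 2 such members numbered 5 (45.1% of all genes), with Insr joining as lower and Igf1r and Irs1 as higher, and still none was called (5.51% of all genes). Leaving out another library gave 2 such members without control replicate 1 (39.6% of all genes) or knockout replicate 1 (36.4%). It gave 3 without control replicate 3 (44.4%), knockout replicate 2 (37.8%) or knockout replicate 3 (42.3%). The fit left room for sizeable changes, since the 95% intervals of Irs1, Irs2, Igfbp2, Igfbp4 and Igfbp6 each reached beyond 1 on the log2 scale in 1 direction, and a p above the threshold does not show that the groups were alike.

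**Figure D2:**
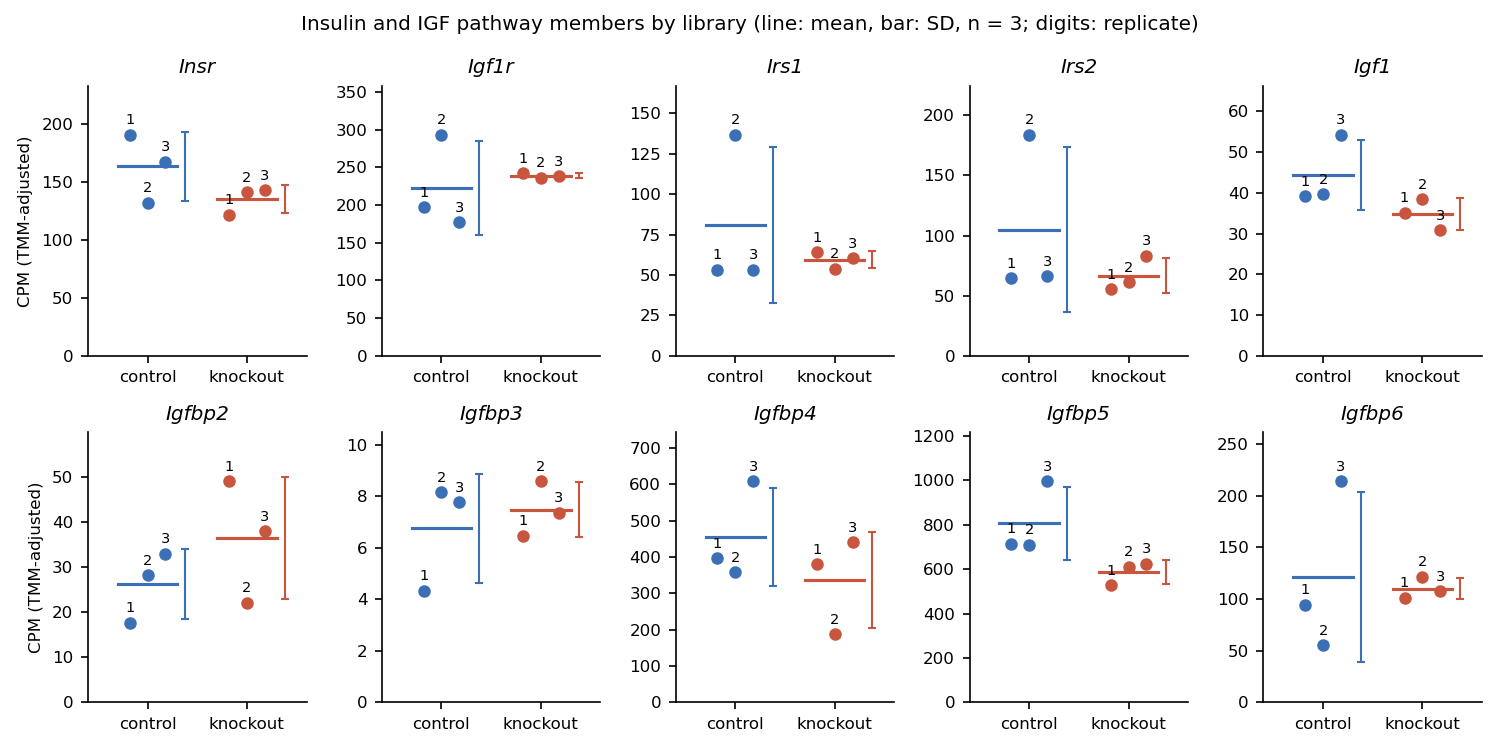
CPM of each member in every library, each panel on its own axis from 0, with the replicate number over each dot, a line at the group mean and a bar of 1 SD (n = 3). Control replicate 2 is the high point of Igf1r, Irs1 and Irs2, and control replicate 3 that of Igf1, Igfbp4, Igfbp5 and Igfbp6.

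The ligand Igf1 (ENSMUSG00000020053; GRCm38 chromosome 10, 87858265 to 87937042, plus strand) encodes insulin-like growth factor 1, made by liver and by many tissues locally. In order of replicate, the controls had 39.2, 39.7 and 54.2 CPM and the knockouts 35.1, 38.5 and 30.8 CPM. All knockout libraries lay below all controls, but the nearest values, 38.5 and 39.2 CPM, were close. The log2 fold change was -0.36 ± 0.17 (SE; 95% interval -0.75 to 0.031; edgeR adjusted p = 0.253). Without control replicate 3, its highest library, the value was -0.18.

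Igf2, the other IGF ligand, had 33.5, 22.6 and 63.0 CPM in controls and 34.4, 50.3 and 22.8 CPM in knockouts, with no separation (log2 fold change -0.18 ± 0.42, edgeR adjusted p = 0.837). The insulin genes gave almost nothing, with 0 counts for Ins1 and 2 for Ins2 over all 6 libraries.

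Insr (ENSMUSG00000005534; chromosome 8, 3122061 to 3279617, minus strand) encodes the insulin receptor. Controls had 191, 132 and 167 CPM and knockouts 122, 141 and 143 CPM. Control replicate 2 fell inside the knockout range, and the other 2 controls lay above it. With all libraries the log2 fold change was -0.28 ± 0.16 (95% interval -0.65 to 0.094; edgeR adjusted p = 0.347), and without control replicate 2 it was -0.40 ± 0.11 (edgeR adjusted p = 0.0873). Without control replicate 1, the highest library, it was -0.16 (edgeR adjusted p = 0.645).

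Igf1r (ENSMUSG00000005533; chromosome 7, 67952827 to 68233668, plus strand) encodes the receptor that binds IGF1 and IGF2. Control replicates 1 and 3 had 197 and 177 CPM, control replicate 2 had 293, and the knockouts had 242, 236 and 238. The knockouts were the tightest of any member, with a coefficient of variation of 1.34%, and lay between the low and the high controls. A log2 fold change of 0.11 ± 0.19 was fitted (95% interval -0.34 to 0.56; edgeR adjusted p = 0.78). It was 0.36 ± 0.092 without control replicate 2 (edgeR adjusted p = 0.0716) and -0.030 without control replicate 3, so its sign rested on single libraries.

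Insr was negative and Igf1r positive with all libraries, and their values lay further apart without control replicate 2. Neither was called in either fit, and without control replicate 3 both were negative (-0.26 and -0.030). Igf2r, the scavenger receptor that clears IGF2, followed the pattern of Igf1r, with 138, 189 and 125 CPM in controls and 166, 165 and 164 in knockouts (log2 fold change 0.14 ± 0.17, edgeR adjusted p = 0.667).

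Irs1 (ENSMUSG00000055980; chromosome 1, 82233101 to 82291416, minus strand) encodes the first insulin receptor substrate. Controls had 53.4, 137 and 53.4 CPM and knockouts 64.1, 54.0 and 60.3 CPM. Control replicate 2 was 2.40 times the mean of the other 5 libraries, and the remaining values lay within a narrow band. The log2 fold change of -0.42 ± 0.37 (95% interval -1.31 to 0.47; edgeR adjusted p = 0.547) became 0.16 ± 0.10 without that library (edgeR adjusted p = 0.383).

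Irs2 (ENSMUSG00000038894; chromosome 8, 10984681 to 11008458, minus strand), the substrate gene known as a FOXO target in liver, showed the same library. Controls had 64.4, 184 and 66.2 CPM and knockouts 55.5, 61.3 and 83.2 CPM. Control replicate 2 was 2.78 times the mean of the other 5, and the 5 overlapped freely. The log2 fold change went from -0.63 ± 0.43 (95% interval -1.66 to 0.40; edgeR adjusted p = 0.436) to 0.037 ± 0.18 without it (edgeR adjusted p = 0.92). A ratio over 1.5 in control replicate 2 was seen for 2 of the 10 members and for 16% of the 15387 tested genes with a mean of at least 1 CPM and counts in both groups. That library also had the high share of mitochondrial ribosomal RNA, and the part of this in the Irs1 and Irs2 values was not tested.

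Exons of Irs1 overlap those of Gm9747 on the other strand over 2822 bases, and Irs2 overlaps 9530052E02Rik over 162 bases. No source used here gives the strand setting of the counting, so such reads cannot be told apart, though these neighbours had 20 and 69 counts in all against 4658 for Irs1 and 5563 for Irs2.

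**Figure D3:**
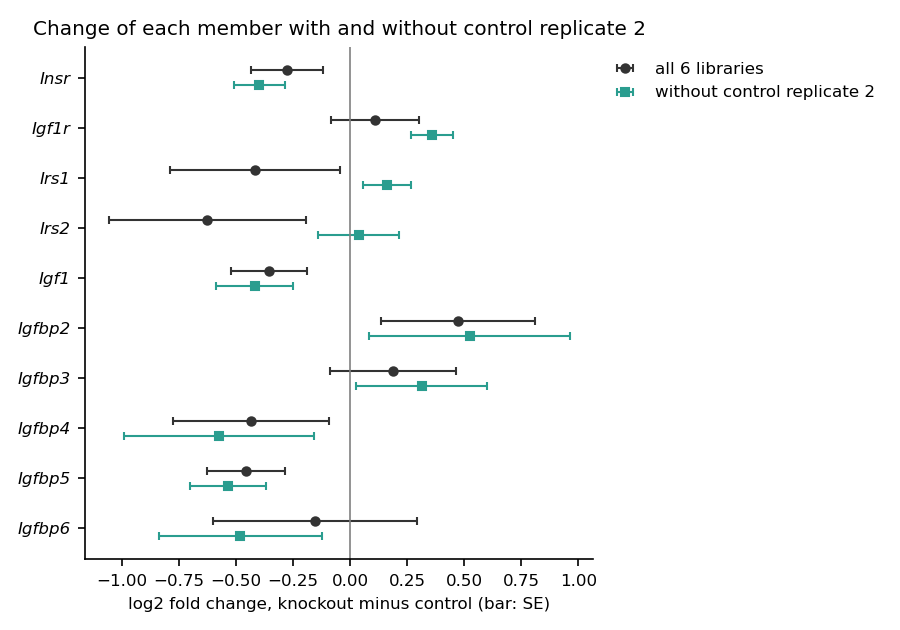
Log2 fold change (knockout minus control) of each member with 1 SE, for all 6 libraries (black circles) and without control replicate 2 (green squares). Irs1 and Irs2 change from -0.42 and -0.63 to 0.16 and 0.037, while Igf1 and Igfbp5 stay negative.

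Igfbp5 (ENSMUSG00000026185; chromosome 1, 72857932 to 72874884, minus strand) encodes a binding protein that also attaches to matrix. Controls had 715, 710.0 and 996 CPM and knockouts 527, 611 and 625 CPM. Each knockout library was below each control, and the knockout mean was 72.8% of the control mean (588 ± 53.2 against 807 ± 164 CPM, SD, n = 3). This gave a log2 fold change of -0.46 ± 0.17, with an unadjusted 95% interval of -0.85 to -0.062. It had the smallest p of the members, and it was not called (edgeR adjusted p = 0.167, and 0.0924 to 0.47 over the alternatives). Leaving out control replicate 3, its highest library, brought the value to -0.28.

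Igfbp2 (ENSMUSG00000039323; chromosome 1, 72824503 to 72852474, plus strand), a carrier that can bind integrins through an RGD sequence, lies 5457 bases from Igfbp5, the pair ending towards each other. Controls had 17.7, 28.2 and 32.9 CPM and knockouts 49.0, 22.1 and 37.9 CPM. The groups overlapped through knockout replicate 2, and without it the knockouts lay above the controls. Its log2 fold change was 0.47 ± 0.34 (95% interval -0.32 to 1.27; edgeR adjusted p = 0.446), opposite in sign to that of its neighbour. It was 0.21 without knockout replicate 1, 0.23 without control replicate 1 and 0.74 without knockout replicate 2 (edgeR adjusted p = 0.291).

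Igfbp4 (ENSMUSG00000017493; chromosome 11, 99041244 to 99054392, plus strand) encodes a carrier mainly known for inhibiting IGF action, released by the protease PAPP-A. Controls had 398, 358 and 609 CPM and knockouts 381, 188 and 442 CPM. Knockout replicate 2 was the lowest and control replicate 3 the highest, and the other 4 libraries mixed. Its log2 fold change was -0.44 ± 0.34 (95% interval -1.24 to 0.37; edgeR adjusted p = 0.493), and it was -0.14 without knockout replicate 2, -0.16 without control replicate 3 and -0.68 without knockout replicate 3.

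Igfbp6 (ENSMUSG00000023046; chromosome 15, 102144362 to 102149511, plus strand) encodes a carrier that prefers IGF2. Controls had 94.7, 55.6 and 214 CPM and knockouts 101, 122 and 107 CPM. The 3 knockouts lay inside the 3.85-fold range of the controls. Igfbp6 had a log2 fold change of -0.15 ± 0.45 (95% interval -1.22 to 0.91; edgeR adjusted p = 0.873), and it was -0.48 without control replicate 2 and 0.53 without control replicate 3. Its direction rested on which library was left out.

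Igfbp3 (ENSMUSG00000020427; chromosome 11, 7206086 to 7213923, minus strand), the main IGF carrier of blood plasma, was the scarcest member with 549 counts in all. Controls had 4.33, 8.16 and 7.78 CPM and knockouts 6.47, 8.59 and 7.36 CPM. Control replicate 1 was low and the other 5 were alike (log2 fold change 0.19 ± 0.28, 95% interval -0.46 to 0.83, edgeR adjusted p = 0.729). In control replicate 2 the value rests on 22 counts.

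Control replicate 3 was the highest of the 6 libraries for 4 members, Igf1, Igfbp4, Igfbp5 and Igfbp6. It was also the highest for 6 of the 8 fibroblast markers, among them Dcn, Lum and Pi16, while control replicate 2 was the highest for the other 2 and the lowest for 6. The summed level of the 8 markers was 3059 to 4672 CPM in controls and 3303 to 3490 CPM in knockouts (3489.5 in knockout replicate 1), and 0 of the 8 were called. The largest part of that sum was Col1a1, at 1318, 2891 and 2140 CPM in the controls and 1392 to 1629 CPM in the knockouts. None of the 8 was at 0 in all libraries. Other cell types' markers peaked in the same library. Control replicate 3 was highest for 7 of 8 macrophage markers, whose sum was 572 CPM there and 181 to 468 CPM elsewhere, and for 5 of 8 white adipocyte markers, whose sum was 1440.2 CPM there and 937 to 1263 CPM elsewhere. Their part in the binding protein values was not tested. Summed endothelial markers were 748 to 928 CPM in controls and 646 to 1509 CPM in knockouts, lowest in knockout replicate 3.

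Spread differed between the groups. The median coefficient of variation of the members was 29.7% in controls and 10.3% in knockouts, beside 19.2% and 11.1% over the genes with a mean of at least 1 CPM. It was larger in controls for 8 of the 10 members and for 71.5% of those genes, Igfbp2 and Igfbp4 being the 2 members with the larger spread in knockouts. These values include control replicate 2, the highest library for Igf1r, Irs1 and Irs2 and the lowest for Igfbp6. The spread was not computed without it, so how far the larger spread in controls rests on that library was not tested.

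As shares of the summed FPKM of the 5 binding proteins, Igfbp6, Igfbp5 and Igfbp4 made up most of each library. Igfbp6 was 36.8% ± 10.7 (SD, n = 3) in controls and 43.6% ± 6.95 in knockouts, Igfbp5 31.0% ± 6.22 and 25.9% ± 2.82, and Igfbp4 27.7% ± 3.0 and 23.7% ± 8.06. Igfbp2 was 3.76% ± 1.44 in controls and 5.86% ± 2.09 in knockouts, and Igfbp3 0.707% ± 0.356 and 0.870% ± 0.173. The shares of the groups overlapped for each of the 5. Like the order of levels, these shares depend on the gene lengths behind FPKM. By raw counts Igfbp5 was above Igfbp6 in every library, with 10398 against 1378 in control replicate 1. Knockout replicate 2 had the lowest share of Igfbp4 (14.5%) and the highest of Igfbp6 (51.6%), and control replicate 2 had the lowest of Igfbp6 (26.0%) and the highest of Igfbp5 (37.1%). The summed FPKM itself ran from 171 in control replicate 2 to 433 in control replicate 3, with 209.6 to 249.5 in the knockouts. FPKM divides by the unadjusted library total, unlike CPM here, so this sum is not on the scale of the tests. Igfbp5 was at 63.4 FPKM in control replicate 2 and 76.2 in control replicate 1, but at 710.0 and 715 CPM.

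**Figure D4:**
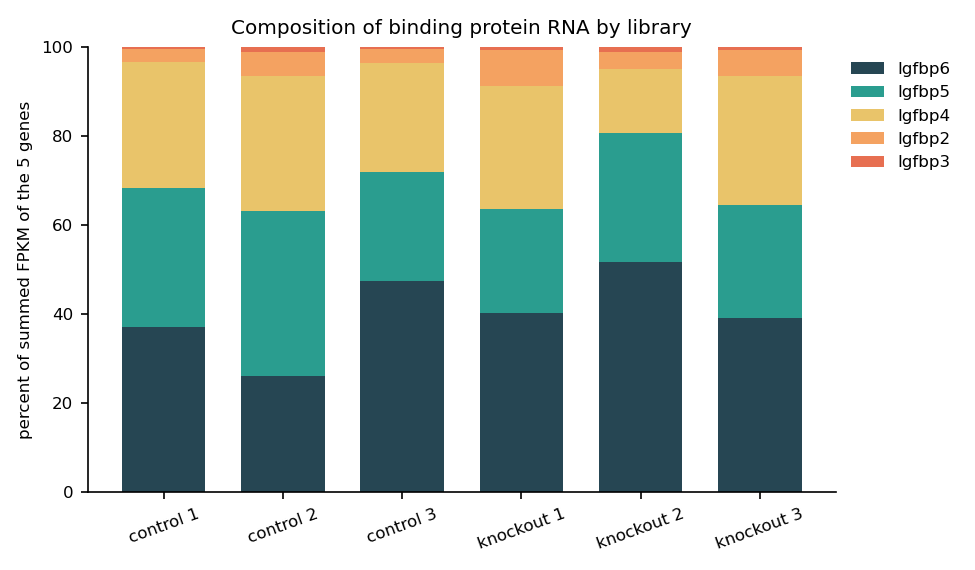
Stacked bars of the share of each binding protein gene in the summed FPKM of the 5 (y axis, percent), 1 bar per library. Igfbp6 is lowest in control replicate 2 (26.0%) and highest in knockout replicate 2 (51.6%), and Igfbp2 and Igfbp3 remain small in each bar.

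The genes whose log2 CPM followed Igfbp5 most closely over the 6 libraries were Hsd17b10 (Pearson r = 0.989), Fam3a (0.985) and Gins1 (0.984), the 3 highest of 13042 candidates. These are descriptions over 6 points that share the same library scaling. Hsd17b10 and Fam3a lay between 23.1 and 45.3 CPM, and Gins1 near the floor of the search at 1.11 to 1.96 CPM. None of the 3 was called (edgeR adjusted p = 0.207, 0.221 and 0.403).

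Around the members, 109 of 122 further genes of the pathway were tested. Of these, edgeR called 2 higher and 2 lower in knockouts, or 3.67%, close to the 3.45% of all genes, while DESeq2 called 12. At an unadjusted p under 0.05 there were 25, and 39 had groups that do not overlap, again beside 22.7% and 31.8% of all genes. The lists were chosen with earlier results of these data known. The 4 calls fell in 3 of the 8 lists.

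Of 17 PI3-kinase and AKT genes, edgeR called Pik3r2 as higher and Gsk3b as lower in knockouts. Pik3r2, which encodes the p85-beta regulatory subunit of PI3-kinase, had 71.0, 66.4 and 78.8 CPM in controls and 134, 111 and 121 in knockouts. The log2 fold change was 0.75 ± 0.13 (edgeR adjusted p = 0.0321), and the groups did not overlap. Gsk3b, a kinase that AKT inhibits, had 92.7, 132 and 83.3 CPM in controls and 48.5, 22.6 and 35 in knockouts (log2 fold change -1.53 ± 0.30, edgeR adjusted p = 0.0447). Its mean in knockouts was 34.5% of control.

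The Gsk3b call was lost in each of the 6 fits without 1 library (edgeR adjusted p = 0.0657 to 0.141). That of Pik3r2 was lost without control replicate 1 (0.119) or knockout replicates 1 (0.162), 2 (0.126) or 3 (0.0876). Slc2a4, the insulin-responsive glucose transporter GLUT4, came next with 42.5, 45.98 and 52.8 CPM in controls and 65.5, 64.4 and 59.3 in knockouts, groups that did not overlap, and edgeR did not call it (log2 fold change 0.42 ± 0.12, adjusted p = 0.104), while limma-voom with library quality weights did (0.0419). Akt1 had a log2 fold change of 0.23 ± 0.13 (edgeR adjusted p = 0.361).

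Among 20 negative regulators, Ptprf was the 1 that edgeR called, as higher in knockouts. It encodes the receptor phosphatase LAR, which can act on the insulin receptor, and had 35.5, 41.2 and 34.9 CPM in controls and 66.6, 62.6 and 58.2 in knockouts (log2 fold change 0.76 ± 0.12, edgeR adjusted p = 0.0295). The adaptor gene Grb10 (0.31 ± 0.15), whose product restrains the receptors, had an edgeR adjusted p of 0.273. Inppl1 (0.49 ± 0.14) and Phlpp1 (-0.49 ± 0.14) had the next smallest p, were not called by edgeR, and were called by limma-voom with quality weights (adjusted p = 0.0402 and 0.0424). Without control replicate 1 or 3 or any 1 knockout library Ptprf was no longer called, at edgeR adjusted p-values of 0.0588 to 0.156.

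The 8 tested proteases of binding proteins and their inhibitors had 1 call, Htra3, as lower in knockouts. This serine protease gene had 200.1, 175 and 236 CPM in controls and 137, 120.2 and 126 in knockouts (log2 fold change -0.68 ± 0.14, edgeR adjusted p = 0.0488), groups that did not overlap. Leaving out control replicate 2 kept this call (0.0258), and leaving out any other library ended it (0.0809 to 0.213), as did no filter on low counts (0.0812) and no robust estimation (0.0535). Pappa, the gene of the PAPP-A protease that cuts IGFBP4, stayed low at 2.41, 6.30 and 4.29 CPM in controls and 2.72, 3.94 and 2.78 in knockouts. Its relative Pappa2 (log2 fold change 0.69 ± 0.44) and the PAPP-A inhibitor Stc2 (-0.64 ± 0.50) had edgeR adjusted p-values of 0.392 and 0.488.

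In the remaining lists edgeR called 0 genes. Of the 4 tested ligands, receptors and carriers outside the members (Igf2, Igf2r, Igfbp7 and Igfals), 0 had an unadjusted p under 0.05. Igfals, which encodes a subunit of the circulating IGF complex, had a log2 fold change of -0.20 ± 0.69 (edgeR adjusted p = 0.893). Of 15 receptor adaptors, Dok4 (0.59 ± 0.15), Dok1 (1.08 ± 0.31) and Gab1 (-0.42 ± 0.14) had the smallest p, with edgeR adjusted p-values of 0.0791, 0.102 and 0.128, and 4 had an unadjusted p under 0.05. DESeq2 called Dok4 (adjusted p = 0.0372) and Dok1 (0.00941), as did quality weights, and edgeR without control replicate 3 called Dok1. Among 14 genes of the mTORC1 branch 3 had such a p, namely Mlst8 (0.68 ± 0.17), the mTORC1 inhibitor Ddit4 (1.54 ± 0.42) and Rps6kb2 (0.40 ± 0.14). Mlst8 was called by DESeq2 (adjusted p = 0.0222) and with quality weights (0.0307) but not by edgeR (0.0716). Ddit4 went from 14.4, 29.7 and 50.3 CPM in controls to 84.0, 102 and 88.9 in knockouts and was called by DESeq2 (adjusted p = 0.00203) and limma-voom with quality weights (0.0242) but not by edgeR (0.0951), except without control replicate 3 (0.0403).

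The RAS and MAP kinase branch had 3 of 13 genes at an unadjusted p under 0.05. Araf was closest to a call, with 96.2, 128 and 110.4 CPM in controls and 70.3, 65.6 and 76.2 in knockouts (log2 fold change -0.65 ± 0.14, edgeR adjusted p = 0.0503). It was called by DESeq2 (adjusted p = 0.00345), by limma-voom without and with quality weights (0.0441 and 0.0227) and by edgeR without control replicate 2 (0.0446). Mapk3 (0.53 ± 0.16) and Hras (0.38 ± 0.13), which encode ERK1 and a RAS protein, followed with edgeR adjusted p-values of 0.113 and 0.133, and DESeq2 called Mapk3 (0.0471). FOXO factors and targets had 5 of 18, with a median log2 fold change of -0.15 over the list. Foxo1 was level (0.0082 ± 0.12, edgeR adjusted p = 0.98). Foxo6 (-1.56 ± 0.41) and Foxo4 (-0.46 ± 0.14) were below control in each knockout library and were not called by edgeR with all libraries. DESeq2 called Foxo6 (adjusted p = 0.0107), as did edgeR without control replicate 3 (0.038). Sesn3, a stress-response gene, had 47.8, 68.6 and 5.74 CPM in controls and 3.74, 4.35 and 4.85 in knockouts. Control replicate 3 lay close to the knockouts there, and the log2 fold change of -3.18 ± 0.85 had an edgeR adjusted p of 0.098, against 0.00675 with DESeq2 and 0.00521 with edgeR without control replicate 3.

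**Figure D5:**
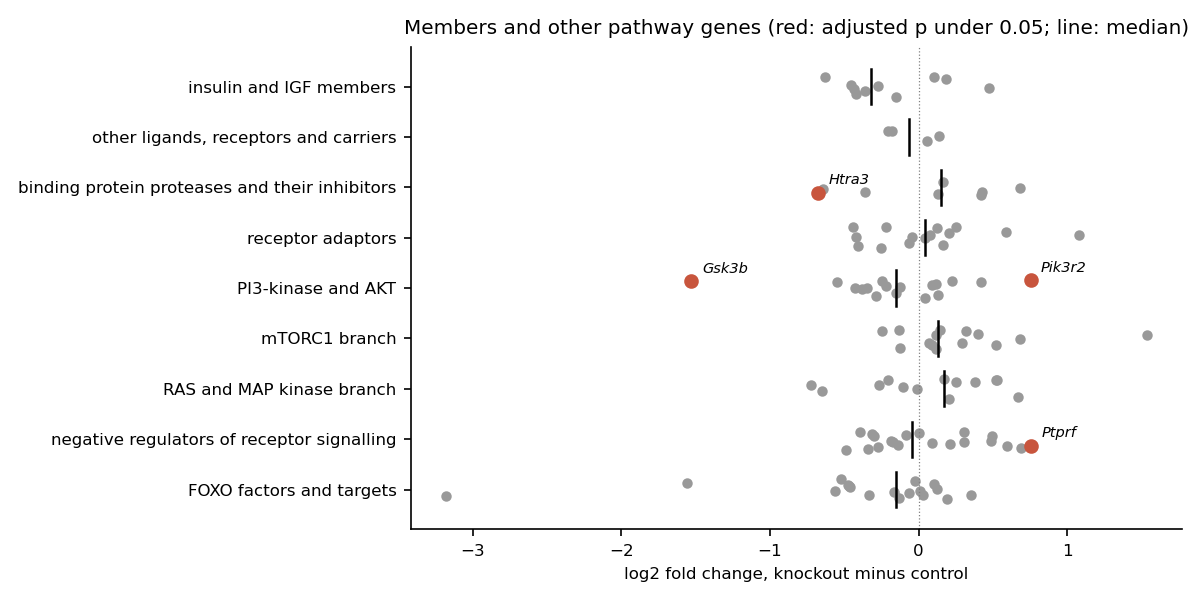
Log2 fold change (knockout minus control, x axis) of each tested gene in the members and in 8 pathway lists (rows), with a vertical line at each median and red for an edgeR adjusted p under 0.05. The members spread from -0.63 to 0.47 with none in red, and Gsk3b, Htra3, Pik3r2 and Ptprf are the 4 red points.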

How the data were processed

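Per the file headers, the authors deposited for each of the 6 aorta libraries raw counts and FPKM by gene. FPKM as deposited matched count over library total with a single gene length, to within a relative 1.35e-05 for 7705 genes (minimum 50 counts per library). FPKM were used for levels between genes and for the shares and the sum of the binding proteins. Per the submitters' processing notes, CASAVA 1.8, SAMtools 1.3.1, HISAT2 and edgeR were used. The program, annotation and strand setting behind the counts are not stated there. Those notes name GRCm39, yet 99.4% of 55141 shared identifiers had the positions of GENCODE M21 on GRCm38, as did all 10 members, so positions are GRCm38.

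Counts were tested in R 4.3.3 with edgeR 4.0.16 (filterByExpr, TMM scaling, glmQLFit and glmQLFTest with robust estimation), with Benjamini-Hochberg adjustment over 16139 genes and a threshold of 0.05. SE was taken as the absolute log2 fold change over the square root of F. Alternatives used limma 3.58.1 and DESeq2 1.42.0. Libraries of a group were not duplicates, as the mean chi-square per gene within a group was 15.5 or more.

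The members and gene lists were chosen with earlier results of these data known. Named genes were all members, Ogt, 10 further genes fixed by name (Igf2, Igf2r, Igfbp7, Pappa, Stc2, Grb10, Akt1, Foxo1, Slc2a4 and 1 that is not reported here), the 3 genes of smallest unadjusted p in each pathway list and all called ones. Likeness took the 3 highest Pearson r with the member of smallest p, over log2 CPM with a prior count of 2, among genes with a mean of at least 1 CPM and no predicted-gene name. Cell markers and the insulin genes lie outside that rule.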

Additional observations from a re-analysis of the deposited data

How the results depend on the processing

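The count of members called stayed 0 in all 14 alternatives, in which the lowest adjusted p of a member was 0.0716. The sign held in all 14 for 5 of the 10 members (Insr, Igf1, Igfbp2, Igfbp4 and Igfbp5). Leaving out 1 library at a time gave log2 fold changes of -0.030 to 0.36 for Igf1r, -0.65 to 0.16 for Irs1, -0.89 to 0.037 for Irs2, -0.091 to 0.37 for Igfbp3, -0.48 to 0.53 for Igfbp6, -0.50 to 0.32 for Igf2, -0.094 to 0.25 for Igfbp7, -0.94 to 0.24 for Stc2, -0.056 to 0.072 for Foxo1 and -0.74 to 0.32 for Igfals. Members whose groups do not overlap numbered 2 with all libraries and 5 without control replicate 2 (background 45.1%), an alternative chosen after seeing the data. With library quality weights in limma-voom, in which control replicate 2 had a weight of 0.436, Igfbp7 was at -0.11 and Pappa at 0.084. Over all genes, 557 calls became 1501 with DESeq2, 1784 with quality weights and 7 to 911 when a library was left out, and the 4 pathway calls became 12, 12 and 0 to 5. The cause of these moves was not tested. Title numbers run from 1 to 3 in both groups. Deviations from the group mean correlated at -0.060 to 0.086 between same-numbered libraries and at -0.098 to 0.097 between differently numbered ones. With 3 libraries per group this cannot settle whether the libraries were paired. A fit with the replicate number as a block called 28 genes, 0 members and 0 pathway genes, and Igfbp6 was then at 0.056. Depth limits Igfbp3 most, with 22 counts in control replicate 2.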
